A study of Mus musculus with 6 samples.

Results

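The 10 genes described here encode protein kinases that start mitosis, build the spindle and hold cells back until the chromosomes are attached: Cdk1, Wee1, Plk1, Plk4, Aurka, Aurkb, Bub1, Bub1b, Ttk and Nek2. They were taken by symbol from a table of 22057 genes, all 10 were found, and all 10 were among the 17068 genes tested (mean normalized count of at least 10). PolyA RNA was sequenced from neural progenitor cells in culture, precursors that divide and give rise to neurons and glia, taken from 3 mice (62, 68 and 69). In the EF group (n = 3), p53-null cells spent 4 days in stem cell medium with the mitogens EGF (epidermal growth factor) and FGF (fibroblast growth factor) and with heparin, the study's control. In the PDGFA group (n = 3), p53-null cells of the same mice spent 4 days with platelet-derived growth factor A, written as 20 ug/ml in the labels; no other source used here gives the concentration, and whether the unit is a slip for ng/ml could not be settled. Both groups lack p53, the tumour suppressor encoded by Trp53, and no p53-proficient sample was analysed here. No source used here gives the deleted part of Trp53, the cells in which it was deleted, or the strain and age of the mice. The labels name PDGFA in place of EGF and FGF, so the factors removed and the one added cannot be told apart.

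As background, entry into mitosis is driven by CDK1 bound to a cyclin, and WEE1 holds CDK1 back by phosphorylating it. The polo-like kinase PLK1 and the aurora kinases AURKA and AURKB then separate the centrosomes, build the spindle and correct faulty attachments, while PLK4 starts the duplication of centrioles and NEK2 loosens the link between the centrosomes. BUB1, BUB1B (BUBR1) and TTK (MPS1) act at kinetochores, the protein plates that tie chromosomes to the spindle, and delay anaphase until every chromosome is attached. Transcripts of most of these genes are made mainly in the G2 and M phases of cycling cells, through a promoter element called the CHR, often with CCAAT boxes upstream, and are scarce in cells that have left the cycle.

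Promoters are shown because the 10 genes changed together. The 4 printed differ in which of these elements they hold, or in the spelling or strand of the CHR. RefSeq promoters (GRCm38.p6, 250 bases before to 50 after the start of the gene) were matched by symbol for 8 of the 10 members, all but Wee1 and Aurkb. Letters searched on both strands were TTTGAA or TTCGAA for the CHR, CCAAT for the CCAAT box, and TTTCCCGC, TTTCGCGC, TTTGCCGC or TTTGGCGC for a site of E2F factors. Capitals mark these matches (ATTGG and TTCAAA are matches on the other strand) in the stretch from 150 bases before to 30 after the start, 5′ to 3′ along the gene. The first stretch (chr10:69352883-69353062, minus strand) carries all 3 kinds of match, and the Bub1 stretch (chr2:127831830-127832009, minus strand) has the CHR spelling TTCGAA. That of Ttk (chr9:83834539-83834718, plus strand) has a CHR on the other strand, and that of Plk4 (chr3:40799801-40799980, plus strand) has no match. The starts used here are those of RefSeq. In GENCODE M21, Plk4 starts at 40800019, after the end of its RefSeq window (40800000), so bases after that start were not searched.
Cdk1: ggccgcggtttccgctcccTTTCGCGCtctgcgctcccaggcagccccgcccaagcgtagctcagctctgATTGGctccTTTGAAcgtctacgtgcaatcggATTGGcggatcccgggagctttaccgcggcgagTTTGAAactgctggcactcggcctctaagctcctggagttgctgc
Bub1: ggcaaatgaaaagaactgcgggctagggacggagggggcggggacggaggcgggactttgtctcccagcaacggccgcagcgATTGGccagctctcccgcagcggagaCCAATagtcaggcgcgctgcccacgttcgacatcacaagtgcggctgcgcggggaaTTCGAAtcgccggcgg
Ttk: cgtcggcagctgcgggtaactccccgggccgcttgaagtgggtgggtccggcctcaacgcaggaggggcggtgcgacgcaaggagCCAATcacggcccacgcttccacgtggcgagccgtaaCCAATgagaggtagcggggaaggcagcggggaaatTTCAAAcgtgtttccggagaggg
Plk4: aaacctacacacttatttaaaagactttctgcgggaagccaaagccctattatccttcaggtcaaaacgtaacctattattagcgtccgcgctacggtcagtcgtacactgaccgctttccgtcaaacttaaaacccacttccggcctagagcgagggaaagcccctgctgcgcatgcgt

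Over the full 300 bases, CHR letters were present in 6 of the 8 promoters, those of Cdk1, Plk1, Aurka, Bub1, Bub1b and Ttk, against 19.2% of all 32851 promoters and 13.7% of the 14553 promoters of tested genes. CCAAT letters were present in 7 of 8, against 37.4% of all promoters and 37.7% of those of tested genes, and the E2F letters in 1 of 8 (Cdk1), against 2.26% and 3.81%. In Plk1 the CHR letters lie 31 to 36 bases after the RefSeq start and in Aurka 33 to 38 bases after it. Both genes have a CCAAT upstream. The GENCODE M21 start of Aurka (172370535) lies farther along the gene, so its distance holds for the RefSeq start only. Nek2 had 2 CCAAT matches and no CHR letters. A match describes letters only, and binding was not measured.

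The libraries held 27270246 to 39601349 reads. Trp53 read 1672 to 2383 normalized counts in EF and 988.3 to 1122 in PDGFA, which checks nothing about the genotype because the deleted part is not given. Over all tested genes 21.8% were called higher in PDGFA and 18.0% lower. Of 8 progenitor markers 3 were higher and 4 lower in PDGFA (sums 78026 to 188277 in EF and 53920 to 56963 in PDGFA). Nes (nestin) went from 33684 ± 13560 to 2575 ± 917 and Sox2 from 11175 ± 2538 to 17554 ± 1144 (SD, n = 3). Of 6 oligodendrocyte markers all 6 were higher in PDGFA, with a summed count of 2324 to 3507 in EF and 262535 to 340411 in PDGFA, and Mog was at 0 in all EF libraries. Of 6 astrocyte markers 5 were higher, with a sum of 34938 to 63689 in EF and 154720 to 246331 in PDGFA. Of 6 neuron markers 2 were higher, Tubb3 and Dcx (sums 402.2 to 1232 in EF and 4495 to 7233 in PDGFA). Dcx alone went from a mean of 130.8 to 4934, and Rbfox3, Snap25 and Syt1 did not pass. Of 5 endothelial markers 3 were in the table, without Cdh5 and Cldn5 (sums 82.4 to 126.1 in EF and 424.4 to 684.5 in PDGFA). Kdr was called higher (mean 61.8 to 517.2) and Pecam1 lower (27.4 to 9.55), and Tek was not tested. Of 5 fibroblast and mural markers 3 were in the table, without Dcn and Lum (sums 57.5 to 120.5 and 61.96 to 108.4). Rgs5 was called higher (mean 1.88 to 60.3) and Col1a1 lower (62.3 to 18.95), and Acta2 did not pass. Of 6 microglia markers 2 were in the table, without Aif1, Cx3cr1, Ptprc and C1qa, and these summed to 11.5 to 44.7 in EF and 5.73 to 8.96 in PDGFA. The part of these markers in the results below was not tested.

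All 10 kinases fell in PDGFA. Their log2 fold changes (log2 changes below) ran from -7.39 for Nek2 to -3.79 for Wee1, with a median of -5.84, and 0.538% to 7.03% of the EF mean was left. The largest adjusted p was 0.000128 in limma, adjusted over all tested genes, and 18.0% of all tested genes were called lower by the same rule. The 10 were also called by edgeR (19.1% of tested genes lower), by DESeq2 (21.9%), with a block for the mouse (15.4%) and without both libraries of mouse 68, which left 7.79% of tested genes lower. A call with a log2 change below -3 was made for all 10 members and for 3.49% of tested genes. In each of the 10 the highest PDGFA library lay below the lowest EF library, which held for 26.3% of tested genes, and all 10 were lower in the 3 pairs of libraries from 1 mouse (30.9% of tested genes). The gap between the lowest EF and the highest PDGFA value was 7.46-fold for Wee1 and 112-fold for Nek2. In RNA of whole cultures, fewer cells that express a gene and less of its RNA per cell cannot be told apart.

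**Figure D1:**
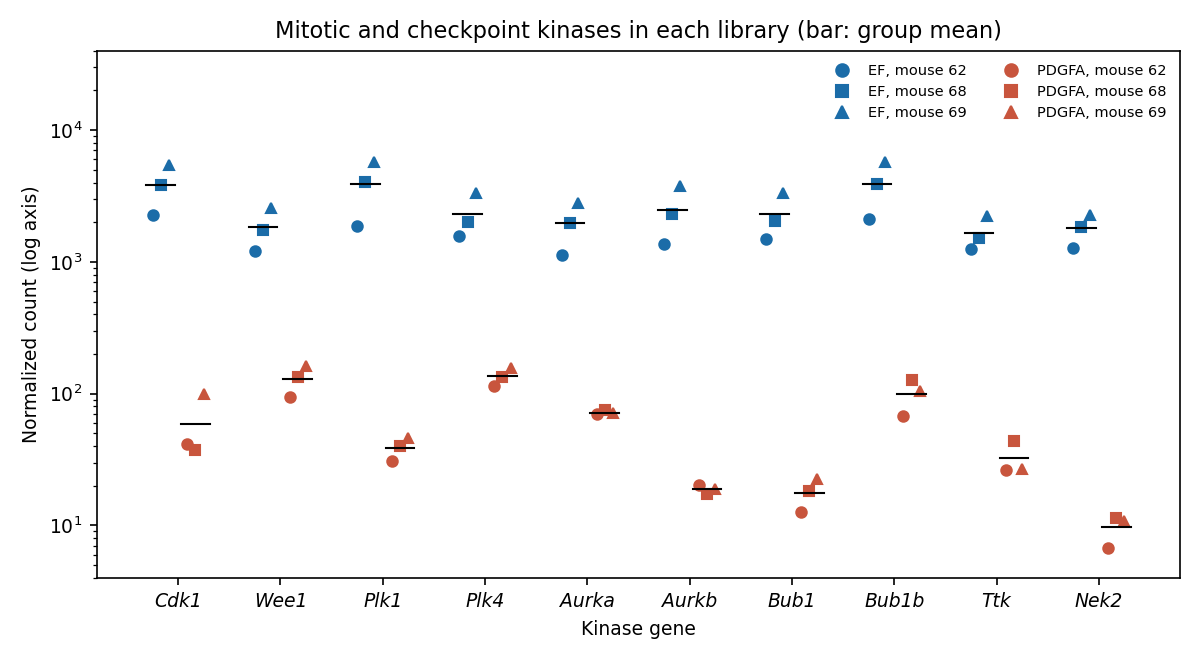
Normalized count (vertical, log axis) of each of the 10 kinase genes (horizontal) in every library, EF in blue and PDGFA in red, with marker shapes for mice 62, 68 and 69 and bars for group means. No EF value overlaps a PDGFA value for any gene; Nek2 has the lowest PDGFA mean (9.67) and Plk4 the highest (135.3).

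Among the kinases of mitotic entry, Cdk1 (chromosome 10, 69335146 to 69352938), the catalytic engine of mitosis, read 2284, 3818 and 5460 normalized counts in EF for mice 62, 68 and 69 and 41.6, 37.2 and 98.6 in PDGFA. The PDGFA library of mouse 69 stood above the other two, which lay close together. The means were 3854 ± 1588 and 59.1 ± 34.2, a log2 change of -6.06 (SE 0.44, adjusted p = 6.69e-05). By the highest value over the lowest, Cdk1 was the only member that spread more between PDGFA libraries (2.65) than between EF libraries (2.39). Wee1 (chromosome 7, 110122046 to 110143286), the kinase that restrains CDK1, read 1210, 1747 and 2581 in EF and 94.2, 132.7 and 162.2 in PDGFA. Its log2 change of -3.79 (SE 0.32, adjusted p = 0.000128) was the smallest of the 10, and it ranked 377th of 17068 tested genes from the most negative. The groups did not overlap, and the PDGFA values had the same order of mice as the EF values. The antisense gene 1600010M07Rik overlaps all 21241 bases of Wee1 and has no row in the table.

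The polo-like kinases differed in how much was left. Plk1 (chromosome 7, 122159439 to 122169873), which acts from centrosome maturation to cytokinesis, read 1884, 4022 and 5745 in EF and 30.6, 40.1 and 45.7 in PDGFA. The EF values spread 3.05-fold, the widest of the 10 kinases, and the PDGFA values 1.495-fold. On the log2 scale Plk1 changed by -6.49 (SE 0.40, adjusted p = 3.45e-05), with 0.999% of the EF mean left. Plk4 (chromosome 3, 40800019 to 40816883), the trigger of centriole duplication, read 1569, 1997 and 3306 in EF and 114.6, 134.6 and 156.8 in PDGFA. Plk4 changed by -4.01 (SE 0.29, adjusted p = 6.29e-05), with 5.91% left. Plk4 and Wee1 kept the largest shares of their EF means among the 10.

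Of the aurora kinases, Aurka (chromosome 2, 172356190 to 172370535), which works at centrosomes and spindle poles, read 1119, 1962 and 2806 in EF and 69.6, 74.5 and 70.8 in PDGFA. The PDGFA values differed by 1.07-fold, the narrowest spread of any member, over 82, 78 and 79 reads. The log2 change was -4.66 (SE 0.33, adjusted p = 5.59e-05). Aurkb (chromosome 11, 69045647 to 69051664), the kinase of the chromosomal passenger complex at centromeres and the midzone, read 1357, 2299 and 3733 in EF and 20.4, 17.2 and 18.8 in PDGFA. The change of Aurkb was -6.84 (SE 0.37, adjusted p = 2.38e-05), and 0.763% of the EF mean was left. PDGFA libraries were flat for both aurora kinases, while their EF libraries spread 2.51-fold and 2.75-fold.

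Kinases of the spindle checkpoint fell by different amounts. Bub1 (chromosome 2, 127801122 to 127831865), which marks centromeres and recruits other checkpoint proteins, read 1501, 2051 and 3326 in EF and 12.7, 18.1 and 22.4 in PDGFA. Bub1 changed by -6.89 (SE 0.35, adjusted p = 2.22e-05). Its relative Bub1b (chromosome 2, 118598211 to 118641591), part of the complex that blocks anaphase, read 2120, 3927 and 5713 in EF and 67.9, 126.0 and 103.9 in PDGFA. The log2 change of Bub1b was -5.22 (SE 0.39, adjusted p = 7.05e-05), with 2.53% left against 0.775% for Bub1. Ttk (chromosome 9, 83834689 to 83872389), the kinase at the head of the checkpoint, read 1243, 1510 and 2224 in EF and 26.3, 43.9 and 26.9 in PDGFA. Its log2 change was -5.63 (SE 0.31, adjusted p = 2.52e-05). The PDGFA library of mouse 68 was the highest of its group for Bub1b and Ttk and not for Bub1.

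Nek2 (chromosome 1, 191821444 to 191833050), which acts on the linker between centrosomes, had the largest fall of the 10. It read 1280, 1825 and 2282 in EF and 6.79, 11.5 and 10.8 in PDGFA, and its EF values spread 1.78-fold, the least of the members. The log2 change was -7.39 (SE 0.32, adjusted p = 1.32e-05), which ranked 12th of 17068 from the most negative. Its PDGFA values rest on 8, 12 and 12 reads, 32 in all (95% exact Poisson interval 21.9 to 45.2, which covers counting error only). Bub1 and Aurkb rested on 59 and 63 PDGFA reads, and the other 7 members on 107 to 451. Gm38037, antisense to Nek2 over 550 bases, went from a mean of 32.1 to 2.31, and the library kit does not mark strand.

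In EF, the library of mouse 62 was the lowest and that of mouse 69 the highest for all 10 kinases, an order that 28.8% of tested genes had. The order also held for all 10 when reads were scaled to library totals or with TMM factors, alternatives chosen after seeing the data. The summed normalized count of the 10 was 15567, 25159 and 37178 in EF for mice 62, 68 and 69, and 484.6, 635.9 and 716.8 in PDGFA. The summed progenitor markers had the same order of mice in EF (78026, 127435 and 188277), and the part of either in the other was not tested. Total reads did not have this order: the EF library of mouse 62 held the most reads of its group. Normalized counts summed over all genes did have it, with 2.89e+07, 3.34e+07 and 3.49e+07 in EF for mice 62, 68 and 69. Mouse 62 was also the lowest PDGFA library for 8 of 10 members (36.5% of tested genes), all but Cdk1 and Aurkb. The median log2 ratio of PDGFA to EF within a mouse was -5.63, -5.84 and -6.05 for mice 62, 68 and 69, and mouse 69 had the largest fall for 9 of the 10, all but Cdk1. The median SD of the members (log2 scale) was 0.605 in EF and 0.379 in PDGFA, against 0.380 and 0.172 over all tested genes.

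Levels of different genes were compared per kilobase of coding-transcript exon (GENCODE M21). In EF, Plk1 was the highest with 1766 ± 880 normalized counts per kilobase, followed by Aurkb (1260 ± 612), Bub1b (1069 ± 490), Aurka (1012 ± 435) and Cdk1 (863 ± 356). Neighbouring means in this order lay within each other's SD, but Plk1, Aurkb, Bub1b, Aurka and Cdk1 took these ranks in each of the 3 EF libraries, which differ together. The other 5, Bub1, Plk4, Ttk, Nek2 and Wee1, lay between 670.2 and 539.9 and changed places between libraries. In PDGFA the highest were Plk4 (38.9 ± 6.07), Wee1 (37.9 ± 9.97) and Aurka (36.9 ± 1.31), which did not differ beyond their spread. Bub1b (27.1 ± 8.001), Plk1 (17.6 ± 3.48), Cdk1 (13.2 ± 7.66), Ttk (11.2 ± 3.45) and Aurkb (9.61 ± 0.814) followed, and the lowest were Bub1 (5.19 ± 1.42) and Nek2 (3.00 ± 0.780). The last 2 places, Bub1 and then Nek2, were the same in all 3 PDGFA libraries. Wee1, last in EF by its mean, was thus second in PDGFA, and Aurkb went from the second place to the eighth. Ranks by mean were unchanged for all 10 in both groups when the longest coding transcript set the length.

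**Figure D2:**
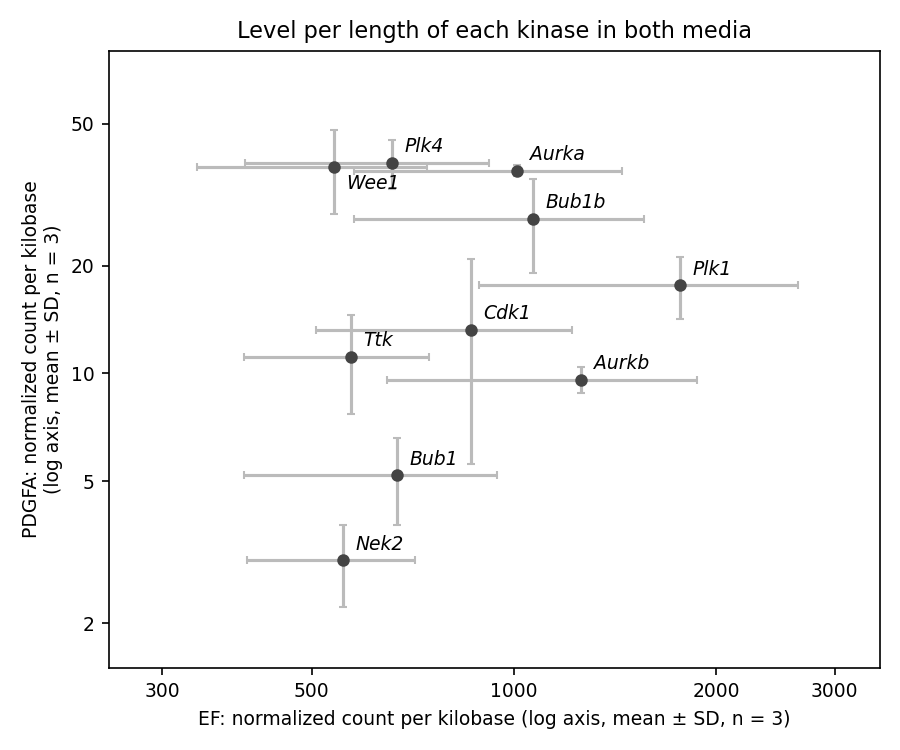
Normalized count per kilobase in EF (horizontal, log axis) against PDGFA (vertical, log axis) for each kinase, points at means and bars at ± SD of 3 libraries. In EF the means span 539.9 (Wee1) to 1766 (Plk1), and in PDGFA 3.00 (Nek2) to 38.9 (Plk4), with Wee1 low in EF and high in PDGFA.

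Ratios within a library show how the balance between kinases differed, free of library scaling apart from the added 1. The normalized count of Wee1 was 0.530, 0.458 and 0.473 times that of Cdk1 in EF for mice 62, 68 and 69, and 2.27, 3.56 and 1.65 times in PDGFA. The inhibitor thus had fewer reads than its target in every EF library and more in every PDGFA library. The difference in log2 ratio was 2.27 (EF mean -1.04, PDGFA mean 1.23). Plk4 over Plk1 was 0.833, 0.497 and 0.575 in EF, against 3.75, 3.36 and 3.43 in PDGFA, a difference of 2.47 in log2 ratio. The centriole kinase was below the mitotic polo-like kinase in EF and above it in PDGFA.

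Aurkb over Aurka was 1.21, 1.17 and 1.33 in EF, against 0.293, 0.231 and 0.266 in PDGFA, a difference of -2.18. Bub1b over Bub1 was 1.41, 1.91 and 1.72 in EF, against 5.33, 6.95 and 4.64 in PDGFA, a difference of 1.67. The difference was 1.26 for Ttk over Bub1 and -3.38 for Nek2 over Plk4, both centrosome kinases. For none of the 6 pairs did the EF ratios overlap the PDGFA ratios. In the exact permutation test (two-sided) each of the 6 had p = 0.1, also after Benjamini-Hochberg adjustment over the 6, and 0.1 is the smallest p that 3 against 3 allows.

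**Figure D3:**
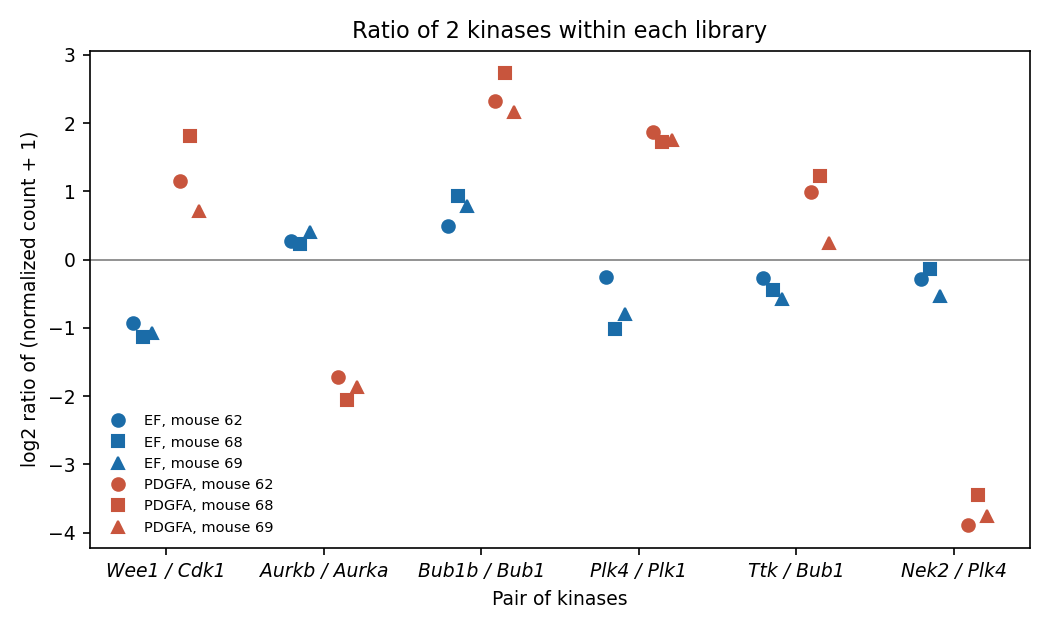
Log2 ratio of normalized counts (each plus 1) of 2 kinases within each library (vertical) for 6 pairs (horizontal), EF in blue and PDGFA in red, with marker shapes for mice. The groups are separate in all 6 pairs, and Wee1 over Cdk1 and Plk4 over Plk1 lie below 0 in EF and above 0 in PDGFA.

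The kinases were set beside 15 reference genes of G2 and M phase, among them Cenpf, Top2a and Kif23, and 15 of S phase, among them Mcm5, Mcm3 and Cdc6. All 15 genes of each list fell, against 18.0% of tested genes. The median log2 change was -5.99 for the G2 and M genes and -2.68 for the S phase genes. It was -5.84 for the kinases and -0.01 over all tested genes. Within a library, the mean log2 level of the 10 kinases minus that of the G2 and M genes was -0.97, -0.95 and -0.85 in EF, against -0.79, -0.79 and -0.77 in PDGFA. Against the S phase genes it was 0.20, -0.01 and -0.29 in EF, against -2.78, -2.61 and -2.50 in PDGFA. The distance to the G2 and M genes varied little, but was larger in every EF library than in any PDGFA library. The kinases lay below the S phase genes in every PDGFA library by more than in any EF library. Cenpf, a kinetochore protein (-6.28, adjusted p = 9.22e-06), Top2a, which untangles chromosomes (-6.45, 9.75e-06), and Kif23, a motor of cytokinesis (-6.59, 9.75e-06), had the smallest p of the first list. Mcm5 (-4.45, adjusted p = 0.00012) and Mcm3 (-4.27, 0.000213), parts of the replication helicase, and Cdc6 (-4.93, 0.000255), which loads it, had the smallest of the second. Ube2c, Tpx2, Cdca8, Birc5 and Ccnb1 stand in the G2 and M list and also in a partner list below. Both lists had the EF order of mice 62, 68 and 69 in all 15 genes. Slbp was not called without the PDGFA library of mouse 68 (adjusted p = 0.0502) or of mouse 69 (0.0526), nor Pcna without that of mouse 69 (0.0556). For Slbp the alternatives gave an adjusted p of 0.000313 to 0.0819, and for Pcna of 8.19e-05 to 0.104. Mcm7 lost its call without both libraries of mouse 68 (0.0823) or of mouse 69 (0.0552), in a range of 3.62e-05 to 0.0823.

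The 6 other genes nearest to the median profile of the 10 kinases over the 6 libraries (Euclidean distance of centred log2 values) were Kif4 (0.178), Haspin (0.216), Cdca8 (0.236), Gtse1 (0.321), Kif11 (0.332) and Tpx2 (0.335). Kif4 and Kif11 are mitotic kinesins, Haspin is a kinase of histone H3, Cdca8 is a subunit of the passenger complex, and Tpx2 is the activator of AURKA. Of the members, Ttk was nearest to that profile (0.591) and Wee1 farthest (2.49). Kif4, the closest gene, read 2136, 3498 and 4577 in EF and 47.5, 68.8 and 61.8 in PDGFA, a log2 change of -5.77 (SE 0.30, adjusted p = 2.26e-05).

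Of 15 partners and switches of CDK1 tested, 10 fell (66.7%, against 18.0% of tested genes) and none was called higher. Their median log2 change was -3.15. Cyclins Ccnb1 (-7.31, adjusted p = 1.8e-05) and Ccnb2 (-5.77, adjusted p = 2.42e-05) and the activating phosphatase Cdc25c (-6.90, adjusted p = 3.57e-05) had the smallest p. Pkmyt1, the membrane-bound relative of WEE1 that also inhibits CDK1, had -3.17 (SE 0.37), singled out after its values were seen. The 5 that did not pass were Cdk7 (-0.03, adjusted p = 0.893), Ccnh (-0.23, 0.245) and Mnat1 (0.02, 0.935), the CDK-activating kinase that also serves transcription, and Ensa (0.06, 0.745) and Arpp19 (0.47, 0.0885), substrates of the mitotic kinase MASTL. Arpp19 was called higher without the EF library of mouse 69 (adjusted p = 0.00887; 0.00887 to 0.414 over the alternatives).

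Activators and partners of the aurora and polo-like kinases fell in 12 of 13 (92.3%, against 18.0% of tested genes), with a median of -4.78. Sgo1, which guards centromeric cohesion (-6.04, adjusted p = 2.2e-05), Tpx2 (-5.54, adjusted p = 2.33e-05) and Cdca8 (-5.99, adjusted p = 2.33e-05) had the smallest p. Ajuba, a LIM protein that can activate AURKA and also acts at cell junctions, did not pass (-0.46, adjusted p = 0.211). Singled out after their values were seen, Bora, the cofactor through which AURKA activates PLK1, had -3.44, and Birc5 and Incenp, partners of AURKB, had -5.39 and -3.96. Birc5 and Incenp fell by less than Aurkb itself (-6.84), and Bora by less than Aurka (-4.66) and Plk1 (-6.49).

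Checkpoint partners at the kinetochore fell in 13 of 17 (76.5%, against 18.0% of tested genes), with a median of -3.78. Cenpe, the kinetochore motor (-6.28, adjusted p = 8.99e-06), Knl1, the scaffold that BUB1 and BUB1B bind (-5.79, adjusted p = 9.49e-06), and Ndc80, the microtubule binder (-5.98, adjusted p = 1.31e-05), had the smallest p. Bub3, the shared partner of BUB1 and BUB1B, was the called member with the smallest fall, from 3789 ± 1072 to 1926 ± 97.7 (-0.94, adjusted p = 0.00965). It was not called without both libraries of mouse 68 (adjusted p = 0.0823; 0.000217 to 0.0823 over the alternatives). Mad1l1 (-0.23, adjusted p = 0.278), Mad2l1bp (-0.58, 0.0978), Zwint (-0.18, 0.43) and Zw10 (-0.37, 0.113) did not pass. Without the EF library of mouse 62, Mad2l1bp (adjusted p = 0.0367; 0.0367 to 0.314) and Zwint (adjusted p = 0.0456; 0.0456 to 0.871) were called lower.

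At the centrosome, 7 of 12 partners of PLK4 and NEK2 fell (58.3%, against 18.0% of tested genes), with a median of -0.97. Stil, which PLK4 phosphorylates to start a centriole, led (-5.52, SE 0.34, adjusted p = 3.51e-05), before Cntrob (-1.67, adjusted p = 0.000193) and Cep135 (-1.90, adjusted p = 0.000278). Proteins of the centrosome linker on which NEK2 acts did not pass: Cep250 had -0.36 (adjusted p = 0.11), Crocc -0.02 (0.923), Cep68 0.02 (0.915) and Lrrc45 0.14 (0.463), beside -7.39 for Nek2. The fifth that did not pass was Cep63 (0.14, adjusted p = 0.502). Odf2 (-0.52, adjusted p = 0.0228) lost its call in the fit with a mouse block (0.0552) and without the PDGFA library of mouse 68 (0.105) or 69 (0.0908), in a range of 0.00578 to 0.137.

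Phosphatases that oppose these kinases changed about as often as all tested genes. Of 15, 3 were lower (20%, against 18.0%) and 2 higher (13.3%, against 21.8%), with a median of 0.08. Cdc14a fell by 1.27 (adjusted p = 0.000514), and Ppp1cb, a catalytic subunit of PP1, rose by 0.90 (adjusted p = 0.00464); Ppp1cb was not called without both libraries of mouse 68 (0.0807; 1.83e-05 to 0.0807). Calls of the PP2A subunits Ppp2r5d (-0.80, adjusted p = 0.0214), Ppp2r2d (-0.45, 0.0414) and Ppp2r5a (0.53, 0.0453) did not hold in every alternative. Ppp2r5d lost its call without EF 68 (0.0512) or any one PDGFA library (0.0566 to 0.0771), in a range of 0.00232 to 0.136. Ppp2r2d lost it with no filter (0.0513), with the mouse as a block (0.0968), without EF 68 (0.074), EF 69 (0.0662) or any one PDGFA library (0.121 to 0.129), in a range of 0.0136 to 0.212. Ppp2r5a lost it with no filter (0.0506), with the block (0.0616), without EF 62 (0.0807), EF 69 (0.0841), PDGFA 68 (0.131) or PDGFA 69 (0.152), in a range of 0.0294 to 0.189. Of the 10 phosphatases that did not pass, Ppp2r2a was called higher without EF 69 (0.0454; 0.0454 to 0.674), and Ppp2r5c lower without EF 62 (0.0297; 0.0297 to 0.485). Cdc14b (-0.67, adjusted p = 0.0789) was called lower by DESeq2 (0.0408; 0.0408 to 0.227).

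Parts of the ubiquitin ligases that act on the kinases were called lower in 4 of 8 (50%, against 18.0% of tested genes) and higher in 1 (12.5%, against 21.8%), with a median of -0.41. Ube2c, a partner of the anaphase-promoting complex (-6.80, adjusted p = 2.62e-05), Fbxo5, its inhibitor (-2.92, adjusted p = 0.000587), and Ube2s (-1.41, adjusted p = 0.00459) fell. Ube2s was not called without both libraries of mouse 68 (0.0564; 2.27e-06 to 0.0564). Fzr1, the fourth (-0.74, adjusted p = 0.0434), lost its call without EF 68 (0.117), EF 69 (0.0995) or any one PDGFA library (0.0982 to 0.122), in a range of 0.0013 to 0.215. The higher gene, Anapc2 (0.42, adjusted p = 0.0425), a core subunit, kept its call in 8 of 18 fits. It lost it with no filter (0.0517), with the mouse as a block (0.0844), without EF 62 (0.0538), EF 68 (0.0801) or any one PDGFA library (0.0802 to 0.162), in a range of 0.0207 to 0.272.

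Factors that act at the promoter elements shown above were called lower in 8 of 17 (47.1%, against 18.0% of tested genes) and higher in 2 (11.8%, against 21.8%), with a median of -0.71. Foxm1, an activator of G2 and M genes, went from 5372 ± 2428 to 206.4 ± 14.1 (-4.59, SE 0.32, adjusted p = 5.69e-05), E2f1 had -4.59 (adjusted p = 0.000136) and E2f7 -5.28 (adjusted p = 0.000171). Rbl2 (p130), a repressor in resting cells, rose by 0.60 (adjusted p = 0.0158) and Lin52, a subunit of the MuvB complex, by 0.87 (adjusted p = 0.00731). Rbl2 was not called without PDGFA 68 (0.0766) or PDGFA 69 (0.0666), in a range of 0.00276 to 0.135, and Lin52 not without PDGFA 68 (0.0581; 2.38e-05 to 0.116). Subunits of NF-Y, which binds CCAAT boxes, did not pass: Nfya had -0.44 (adjusted p = 0.0892), Nfyb -0.22 (0.384) and Nfyc -0.38 (0.11). Without EF 62, Nfya (0.0259; 0.0259 to 0.295) and Nfyc (0.0379; 0.0379 to 0.365) were called lower.

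All 12 other kinases of division and of DNA checkpoints fell (100%, against 18.0% of tested genes), with a median of -3.40. Mastl, Pkmyt1 and Haspin of this list were also counted in a partner list above. Cit, a kinase of cytokinesis, had -5.43 (SE 0.31, adjusted p = 2.62e-05), Haspin -5.79 (SE 0.35, adjusted p = 3.25e-05), and Melk -6.29 and Pbk -6.75, each with an adjusted p = 4.31e-05. The smallest falls were those of the damage kinases Atm (-0.68, adjusted p = 0.00838) and Atr (-0.61, adjusted p = 0.0365), named after their values were seen. Atr lost its call in the fit with a mouse block (0.0506) and without any one PDGFA library (0.0938 to 0.12), in a range of 0.0162 to 0.12. Atm lost it without both libraries of mouse 68 (0.0663; 0.000469 to 0.0663).

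Relatives from the same kinase families were called in both directions at shares near those of all tested genes. Of 32 relatives, 31 were in the table and 29 were tested; 7 fell (24.1%, against 18.0%) and 8 rose (27.6%, against 21.8%), with a median of -0.06. Plk2, a polo-like kinase of the stress and growth factor response, went from 6523 ± 1729 to 550.7 ± 29.4 (-3.53, SE 0.20, adjusted p = 2.63e-05), and Plk3 from 363.0 ± 82.7 to 106.3 ± 12.04 (-1.74, SE 0.25, adjusted p = 0.00146). Plk5 and Wee2 were below the filter, and Aurkc has no row in the table.

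The NIMA-related kinases went both ways. Nek8, a kinase of cilia, fell by 1.14 (SE 0.17, adjusted p = 0.00167). Nek9, which acts upstream of NEK6 and NEK7, rose by 0.61 (SE 0.13, adjusted p = 0.0074) and was not called without PDGFA 68 (0.0513; 0.000144 to 0.13). Nek5 read 4.79, 4.50 and 1.28 in EF and 59.4, 88.8 and 84.2 in PDGFA, a log2 change of 4.21 (SE 0.49, adjusted p = 0.000527). Nek11 read 7.66, 7.88 and 1.28 in EF and 44.1, 56.3 and 61.8 in PDGFA, a log2 change of 3.29 (SE 0.59, adjusted p = 0.00419), or 2.64 without EF 69. Both rest on a few EF reads, and no EF value overlapped a PDGFA value in either. Nek1, Nek3, Nek4, Nek6, Nek7 and Nek10 did not pass, though Nek4 was called higher without EF 62 (adjusted p = 0.0263; 0.0263 to 0.458).

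**Figure D4:**
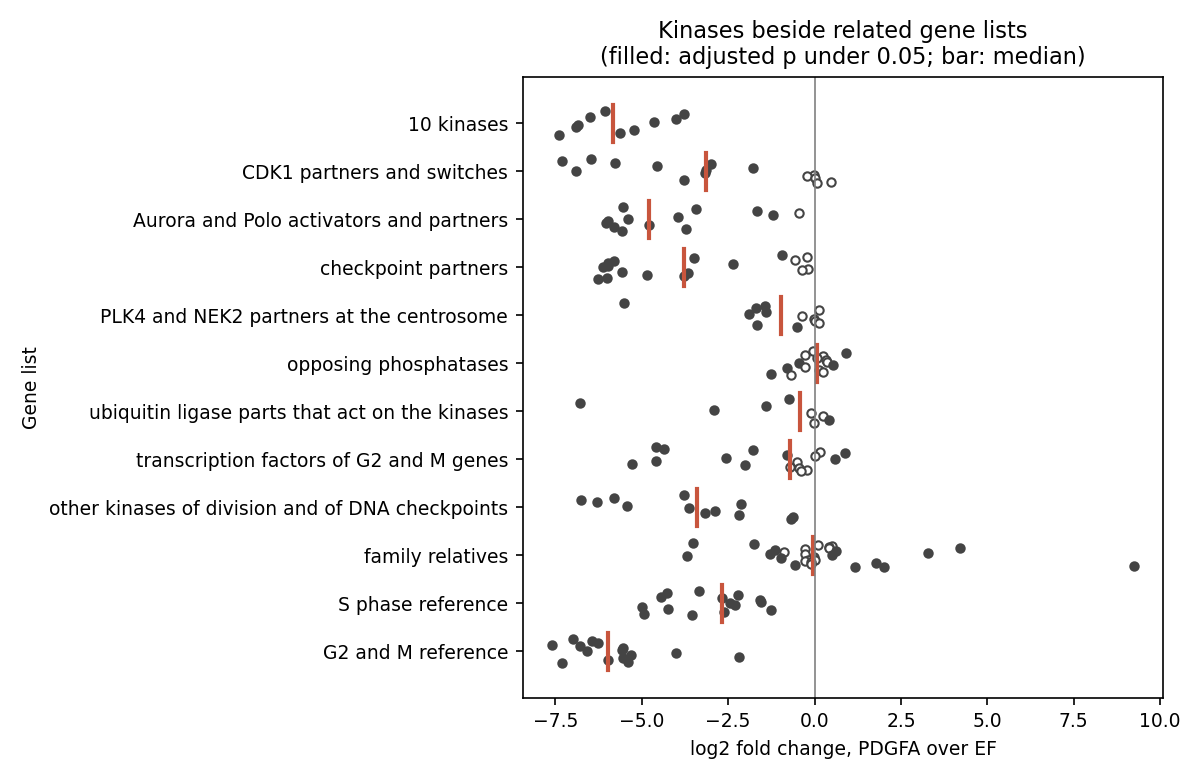
Log2 fold change of PDGFA over EF (horizontal) for each tested gene of the 10 kinases and of 11 gene lists (vertical), filled where the adjusted p was under 0.05, with a red bar at each median. The kinases have a median of -5.84, near the -5.99 of the G2 and M reference, while opposing phosphatases (0.08) and family relatives (-0.06) lie around 0.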

How the data were processed

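The authors deposited 1 table with a normalized signal for 22057 genes in each of the 6 libraries: whole read counts scaled by a size factor that each library has of its own. FastQC, STAR, DESeq2 and mm10 (GRCm38) are named per the submitters' processing notes, without versions. No source used here gives the counter, its strand setting or the annotation. Per the labels' protocols, 1.3 ug of total RNA entered each library. Every deposited value was a whole multiple, within 0.001, of the smallest value above 0 of its library (100% of values), so whole reads were recovered; size factors ran from 0.782 to 1.18.

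Genes with a mean normalized count of at least 10 were tested (17068; 4989 were left out). Values entered limma 3.58.1 (R 4.3.3) on a log2 scale after 1 was added, with group as the term and a trended eBayes step; tests were two-sided, with Benjamini-Hochberg adjustment at 0.05 over all tested genes. Unless another tool is named, adjusted p-values are limma's, and log2 changes carry the added 1, which shrinks those of low genes. As alternatives, the recovered reads went to edgeR 4.0.16 and DESeq2 1.42.0, and pseudocounts (0.5, 5), filters (none, 50), TMM scaling, the mouse as a block and leaving out libraries or mice were tried. With 3 mice, p-values measure the spread between these libraries. Tests were checked on simulated data, which had the same spread for all genes and few changed genes. That check covers the code and not the error rate in these data. The mice pair the libraries, since cells of each mouse went into both media; deviations from the group means had correlations of -0.091, 0.11 and -0.11 for mice 62, 68 and 69. Members and lists were chosen with earlier results of these data known. Named genes are the members, up to 3 falls and 2 rises with the smallest p per list, called relatives of the Plk, Aurk, Nek and Wee families and the 6 nearest profiles. Any other gene was named after its values were seen: those that missed the test, those whose call changed in an alternative, and those marked as such. A list is described by counts and median, with no test of the list. Coordinates are from GENCODE M21 and sequences from RefSeq (GRCm38.p6). Intervals cover counting error only.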

Additional observations from a re-analysis of the deposited data

How the results depend on the processing

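All 10 kinases were called lower in each of the 17 alternatives, and all 170 recomputed fold changes kept their direction and call, between -7.61 and -3.51; the largest adjusted p was 0.00406, for Wee1 without both libraries of mouse 68. With the mouse as a block the count of kinases was 10 and their adjusted p ran from 2.06e-05 to 8.36e-05; in edgeR it ran from 2.64e-05 to 0.000212. The block gave 2626 lower and 3213 higher genes. TMM scaling moved the median of all genes by 0.002 on the log2 scale. The 6 ratios kept their sign in every alternative run.

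Over all genes, 3076 were lower and 3720 higher; without both libraries of mouse 68 these were 1333 and 1943, and without any 1 library 1873 to 3818 and 2245 to 4271, with the lowest counts without PDGFA 68. Counts of the small lists moved. For opposing phosphatases the lower count was 1 to 4 without any 1 library and 1 without both libraries of mouse 68 or 69. Their higher count was 1 to 2 without any 1 library, 1 with no filter, with the block and without mouse 62 or 69, and 0 without mouse 68. For ubiquitin ligase parts the lower count was 2 without mouse 68, and the higher count was 0 to 1 without any 1 library and 0 with no filter, with the block and without any 1 mouse. For CDK1 partners the higher count was 0 to 1 without any 1 library and 1 without mouse 69. For transcription factors the higher count was 0 to 2 without any 1 library, 0 without mouse 68 and 1 without mouse 69. For family relatives the higher count was 5 to 9 without any 1 library and 5 without mouse 68. For the S phase genes the lower count was 13 to 15 without any 1 library and 12 to 15 in the other alternatives. The cause was not tested, beyond the smaller number of libraries. Of the 6 nearest genes 5 were shared with a pseudocount of 0.5 or of 5, and 6 with TMM scaling. Depth limits Nek2, Bub1 and Aurkb most, with at most 63 reads in PDGFA.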

Other observations

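Cyclin-dependent kinases related to Cdk1 went both ways. Cdk18, a kinase of differentiated cells, read 1.92, 2.25 and 5.11 normalized counts in EF for mice 62, 68 and 69 and 1924, 2584 and 2631 in PDGFA. The log2 change was 9.25 (SE 0.36, limma adjusted p = 9.75e-06), and the groups did not overlap. Cdk19, a kinase of the Mediator complex, rose from 1482 ± 68.9 to 5978 ± 785 (log2 change 2.0, adjusted p = 5.55e-05), while its close relative Cdk8 fell from 2288 ± 367 to 1157 ± 72.7 (-0.97, adjusted p = 0.00232). Cdk6, a G1 kinase, fell from 3034 ± 788 to 232.4 ± 26.8 (-3.68, adjusted p = 2.71e-05), and Cdk4 did not pass (-0.29, adjusted p = 0.334), though it was called lower without the EF library of mouse 62 (0.0463; 0.0463 to 0.992 over the alternatives). Cdk14, also chosen after its values were seen, as were Cdk8 and Cdk4, rose from 3151 ± 384 to 10747 ± 383 (1.78, adjusted p = 8.67e-05).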
